A study of Mus musculus with 25 samples.

Results

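The DNA replication genes described here are 40 genes of the machinery that copies chromosomal DNA in S phase. They were chosen by name, and all 40 were found by gene name on the array, among 25498 genes tested in all. They cover the Mcm2-7 helicase, the proteins that load and start it, the sliding clamp with its loader, the polymerases and primase, lagging strand processing, nucleotide supply and chromatin assembly on new DNA. RNA of the whole colon of 25 female mice aged 8 weeks was hybridised to single-colour Agilent arrays, 1 mouse per array. Card9-/- mice on the C57BL/6j background and wild type (WT) C57BL/6j mice were compared. CARD9 is an adaptor protein that myeloid cells use to signal from receptors for fungi. Dextran sulfate sodium (DSS), which damages the lining of the colon, was given at 2% w/v in drinking water for 7 days, and plain water followed for 5 days. The groups were Card9-/- (3 mice) and WT (3 mice) at day 0, before DSS; Card9-/- (4 mice) and WT (5 mice) at day 7; and Card9-/- (5 mice) and WT (5 mice) at day 12. All cell types of the colon contribute to each value. The sources used here do not say how the deletion was made.

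Before S phase the origin recognition complex, Cdc6 and Cdt1 load the Mcm2-7 ring on DNA, and geminin (Gmnn) blocks loading once S phase has begun. Cdc45, the GINS complex and Mcm10 then activate the helicase, and polymerases held by the PCNA clamp copy both strands. In the colon such genes are known chiefly from the dividing cells in the lower crypt, and E2F transcription factors, held back by the retinoblastoma protein, switch many of them on together. Every value below is a log2 signal minus the 75th percentile of its own array, so that 0 is the level of a gene at that percentile and 1 unit is a 2-fold difference.

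The E2F site is shown first because E2F factors are the known regulators of many of these genes, and promoter letters were not used to choose the members. RefSeq promoter windows (GRCm38.p6, 250 bases before to 50 bases after a start) were matched for 33 of the 40 members. Those not matched were Gins1, Gins2, Gmnn, Mcm4, Pole, Prim2 and Rfc2. The E2F motif was searched as TTTCGCGC and TTTGGCGC on both strands. It stood in the windows of 11 of the 33 members (33.3%), against 251 of all 27025 genes with a window (0.929%). The 11 were Cdt1, Lig1, Mcm3, Mcm5, Mcm6, Mcm7, Orc1, Pola1, Pole2, Rfc3 and Uhrf1. In Cdt1, Lig1, Mcm3, Mcm7 and Pole2 the match lay after the start. In the others it lay before the start, and only those are printed below. Among helicase genes 4 of 5 matched held it, and among the genes of helicase activation and of nucleotide supply 0 of 3 and 0 of 4 did. A match of letters is a description and does not show a bound site.

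The 250 bases before the start of Mcm5 and of Mcm6, subunits of the same helicase, are printed in full on the gene's own strand. Capitals mark the E2F letters and the CCAAT box on either strand. In both genes a forward and a reverse E2F match overlap, which makes 1 run of 12 capitals, and Mcm6 has another match nearer its start. Mcm5 lies at chr8:75109259-75109508 on the plus strand and Mcm6 at chr1:128359706-128359955 on the minus strand.
Mcm5: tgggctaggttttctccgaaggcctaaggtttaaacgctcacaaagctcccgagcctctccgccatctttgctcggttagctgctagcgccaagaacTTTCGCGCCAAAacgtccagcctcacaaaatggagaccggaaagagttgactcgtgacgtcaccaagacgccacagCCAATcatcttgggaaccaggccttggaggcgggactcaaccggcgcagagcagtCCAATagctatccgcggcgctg
Mcm6: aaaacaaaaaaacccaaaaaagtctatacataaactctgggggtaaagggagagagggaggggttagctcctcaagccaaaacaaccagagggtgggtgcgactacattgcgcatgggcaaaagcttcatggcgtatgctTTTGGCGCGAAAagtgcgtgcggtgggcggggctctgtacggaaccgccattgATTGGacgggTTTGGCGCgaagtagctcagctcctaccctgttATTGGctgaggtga

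Shorter stretches around the E2F letters, in capitals, show the same site in 4 members of other roles. They are Orc1 (chr4:108579407-108579453, plus strand), Pola1 (chrX:93632266-93632313, minus strand), Rfc3 (chr5:151651209-151651238, minus strand) and Uhrf1 (chr17:56304108-56304155, plus strand).
Orc1: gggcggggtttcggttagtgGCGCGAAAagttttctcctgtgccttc
Pola1: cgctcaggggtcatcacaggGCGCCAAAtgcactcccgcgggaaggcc
Rfc3: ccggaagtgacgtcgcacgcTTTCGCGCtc
Uhrf1: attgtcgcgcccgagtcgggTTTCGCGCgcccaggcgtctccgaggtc

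Genes of mitosis, which follow S phase, had other letters in their windows. Of 20 genes on a list of mitosis and proliferation markers 17 had a window, and 0 of these held the E2F motif. The letters TTTGAA on either strand, the core of the cell cycle homology region of late cell cycle genes, stood in 12 of the 17 (70.6%), in 5 of 33 replication genes (15.2%) and in 20.2% of all genes. CCAAT on either strand stood in 15 of the 17 (88.2%), in 21 of 33 replication genes (63.6%) and in 41.1% of all genes.

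Some facts about the arrays bear on every genotype comparison. The Card9 probe was brighter on the arrays labelled Card9-/-, with group means of -1.20 ± 0.42, -0.58 ± 0.10 and -0.94 ± 0.25 (SD) at days 0, 7 and 12, against -6.06 ± 0.47, -5.43 ± 0.75 and -5.74 ± 1.6 on the WT arrays. This is opposite to loss of a transcript, and the sources do not place the probe relative to the deletion, so Card9-/- below means the arrays labelled so and each genotype direction rests on the labels. Spots well above background made up 48.0% to 67.9% of an array. The 75th percentile was low (log2 7.62 to 7.75) on Card9-/- day 7 replicate 3, Card9-/- day 12 replicate 1 and WT day 7 replicate 5, and the number of arrays limits the precision throughout. Pancreatic acinar genes were high on Card9-/- day 7 replicates 2 and 3, Card9-/- day 12 replicate 1 and WT day 12 replicate 5. Results that rest on these arrays are given with and without them. In whole tissue, fewer dividing cells and less of these RNAs per cell cannot be told apart. The epithelial marker genes had a mean level between 6.86 and 7.49 on every array. That range includes the arrays with acinar signal, so these markers do not exclude other tissue.

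Most members shared the same lowest group. The mean of the 40 members per array was 1.00, 1.39 and 1.03 in Card9-/- mice and 1.48, 1.68 and 1.36 in WT mice at day 0. At day 7 it was 1.89, 1.32, 0.21 and 1.14 in Card9-/- mice and 0.90, 0.84, 1.45, 1.20 and 1.02 in WT mice. At day 12 it was 0.78, 0.52, 0.74, 1.03 and 0.69 in Card9-/- mice and 1.18, 1.41, 1.42, 1.47 and 1.66 in WT mice. The Card9-/- values therefore lay below all WT values at day 12, overlapped them at day 0, and spanned beyond them on both sides at day 7. By group mean, Card9-/- at day 12 was the lowest of the 6 groups for 34 of the 40 members, WT at day 0 was the highest for 27 and WT at day 12 was the highest for 11.

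**Figure D1:**
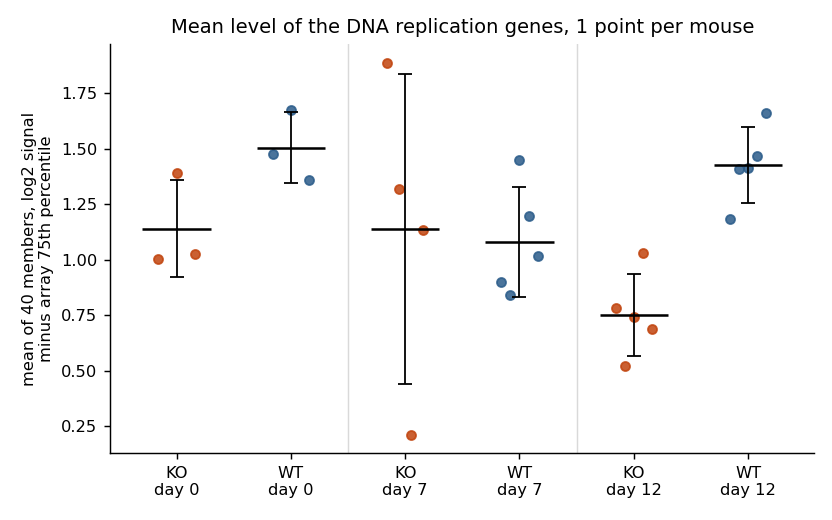
Mean log2 signal, minus the array's 75th percentile, of the 40 DNA replication genes on each array (1 point per mouse; KO, labelled Card9-/-, and WT at days 0, 7 and 12; bars are group means with SD). The 5 KO day 12 points, at 0.52 to 1.03, lie below the 5 WT day 12 points at 1.18 to 1.66, and the KO day 7 points spread from 0.21 to 1.89.

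The comparison of genotypes at day 12 asks whether the colon differs between them after 5 days of recovery. Of the 40 members 38 had a lower mean in Card9-/- than in WT, with a median log2 difference of -0.69 beside -0.01 over all genes tested. For 32 of the 40, every Card9-/- value lay below every WT value, as it did for 2.98% of all genes. None passed the test: limma's adjusted p over all genes was 0.184 to 0.979, with 0 of 40 members called, against 0.0706% of all genes called in either direction. At an unadjusted p under 0.05, 36 of the 40 were lower in Card9-/-, against 5.99% of all genes. The members were measured on the same mice and often moved together, so these counts are not 40 separate results. When the same 2 groups were fitted alone, limma called 21 of the 40 members lower, beside 0.945% of all genes called lower, with a smallest adjusted p of 0.0176. The 6-group fit takes its spread from all groups, and it called 18 members lower when Card9-/- day 7 replicate 3 was left out (1.04% of all genes) and 18 lower without the 3 arrays of low 75th percentile (1.38% of all genes). Without the 4 arrays with acinar signal it called 0 members, beside 0.44% of all genes called in either direction. The smallest limma adjusted p of a member was then 0.0506, and the median was -0.63.

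**Figure D2:**
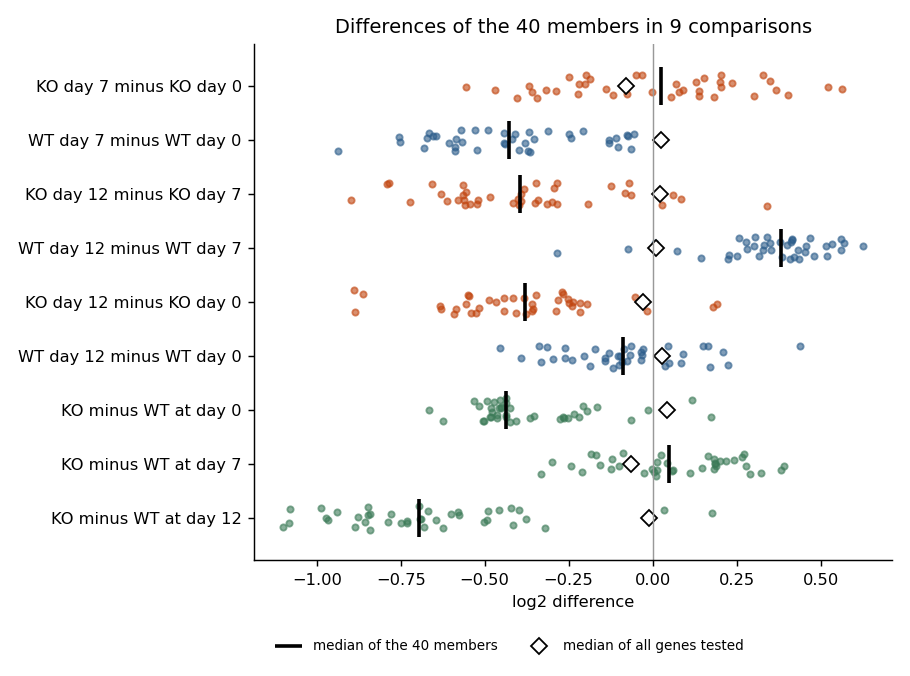
Log2 differences of the 40 members in 9 comparisons (each point is a gene; the bar is the members' median and the diamond the median of all genes tested; KO is labelled Card9-/-). At day 12 the members' KO minus WT median is -0.69, at day 7 it is 0.05 and at day 0 it is -0.44, while all-gene medians stay near 0.

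The helicase subunits Mcm2 to Mcm7 form the ring that unwinds DNA, and all 6 were lower in Card9-/- at day 12, with differences between -0.99 and -0.68. Mcm6 had values of 3.87, 3.53, 3.91, 4.16 and 3.74 in Card9-/- mice, against 4.36, 4.63, 4.60, 4.89 and 5.01 in WT mice. All Card9-/- values were below all WT values. The difference was -0.86 ± 0.27 (SE; 1.81-fold lower; limma adjusted p = 0.26). Mcm5 had values of 1.59, 0.90, 1.45, 1.92 and 1.24 in Card9-/- mice and 2.20, 2.33, 2.40, 2.37 and 2.72 in WT mice, a difference of -0.99 ± 0.32 (1.98-fold lower; adjusted p = 0.274). These groups did not overlap either, as was so for 4 of the 6 subunits. The exceptions were Mcm2 and Mcm4 (-0.69 and -0.68), where 1 Card9-/- value each reached the WT range. Mcm3 and Mcm7 differed by -0.88 ± 0.30 and -0.78 ± 0.26.

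The licensing genes prepare origins before S phase. Their 5 members, Orc1, Orc6, Cdc6, Cdt1 and Gmnn, had a median difference of -0.50, all 5 were lower and 4 did not overlap. Cdt1, which brings the helicase to the origin, had values of 2.38, 2.18, 2.38, 2.52 and 2.27 in Card9-/- mice, against 2.77, 2.96, 2.78, 3.06 and 3.16 in WT mice (difference -0.60 ± 0.21, limma adjusted p = 0.337). The Card9-/- values lay in a narrow band below those of WT. Orc6, a subunit of the origin recognition complex, differed by -0.50 ± 0.18 with no overlap. Gmnn, the inhibitor of Cdt1, had the smallest difference of the 38 lower members, -0.32 ± 0.13. Cdc6, which completes the loader, differed by -0.85 ± 0.32, and its probe was well above background on 24 of the 25 arrays. Orc1, the largest origin recognition subunit, differed by -0.46 ± 0.23 with overlapping groups.

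Among the genes of helicase activation, Mcm10 showed the lowest difference of all 40 members. Mcm10, which helps the loaded helicase start, had values of 0.96, 0.44, 0.93, 1.34 and 0.69 in Card9-/- mice, against 1.50, 1.93, 2.05, 2.10 and 2.26 in WT mice. Every Card9-/- value was below the lowest WT value. The difference was -1.10 ± 0.32 (2.14-fold lower; limma adjusted p = 0.212). Its probe lies at chr2:4911785-4911844 (mm9, per the file). Gins1 and Gins2, subunits of the GINS complex that joins the helicase, differed by -0.97 ± 0.28 and -0.85 ± 0.24, both without overlap. Cdc45, the other helicase cofactor of this role, differed by -0.67 ± 0.24, and its groups overlapped. Gins3, another subunit of the same complex, was 1 of the 2 members that were not lower. Its values were 5.13, 5.08, 4.99, 4.94 and 4.97 in Card9-/- mice, against 5.17, 5.00, 4.95, 4.89 and 4.94 in WT mice. These groups overlapped almost fully, with a difference of 0.03 ± 0.14 (limma adjusted p = 0.979). Gins3 also kept to a range of 0.27 over the 4 Card9-/- day 7 mice, the narrowest of the 40 members in that group.

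The clamp and its loader were lower in all 5 members, and none of the 5 overlapped. Pcna, the clamp that tethers polymerases, had values of 3.86, 3.82, 4.05, 4.10 and 4.01 in Card9-/- mice, against 4.15, 4.30, 4.35, 4.44 and 4.66 in WT mice (difference -0.41 ± 0.16, 1.33-fold lower). Rfc5, a loader subunit, had values of 2.28, 1.78, 1.90, 2.15 and 1.68 in Card9-/- mice, against 2.48, 2.64, 2.61, 2.68 and 2.87 in WT mice. Its difference of -0.70 ± 0.18 had the smallest p of the 40 members (limma adjusted p = 0.184). The loader subunits Rfc2, Rfc3 and Rfc4 differed by -0.38 ± 0.12, -0.49 ± 0.15 and -0.69 ± 0.21.

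Polymerases and primase were lower in all 8 members, with a median difference of -0.66, and 6 of the 8 did not overlap. Pole, the catalytic subunit of the leading strand polymerase, had values of -0.36, -0.39, -0.14, 0.30 and -0.29 in Card9-/- mice, against 0.44, 0.87, 0.76, 0.95 and 0.96 in WT mice. It differed by -0.97 ± 0.31 (1.95-fold lower; limma adjusted p = 0.273). Prim1, the primase subunit that makes the RNA primer, differed by -0.73 ± 0.22 with no overlap. Pola1, the catalytic subunit of the polymerase bound to primase, differed by -0.75 ± 0.28, and the subunits Pold1, Pold2 and Pole2 of the main replicative polymerases by -0.42 to -0.58. The members of overlapping groups were Pola2, well above background on 20 of the 25 arrays, and Prim2. Prim2 was the only member with several usable probes that disagreed in sign at day 12, with differences of -0.49 for the brighter probe and 0.06 for the dimmer one.

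Lagging strand genes were lower in 4 of 4, none of them overlapping. Fen1, the nuclease that trims flaps between Okazaki fragments, had values of 2.66, 2.28, 2.69, 2.89 and 2.52 in Card9-/- mice, against 3.16, 3.37, 3.47, 3.47 and 3.77 in WT mice. Its difference was -0.84 ± 0.23 (1.79-fold lower; limma adjusted p = 0.185). Lig1, the ligase that seals the fragments, differed by -0.62 ± 0.17, and the single-strand binding subunits Rpa1 and Rpa2 by -0.40 ± 0.12 and -0.64 ± 0.25.

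Nucleotide supply held the lowest differences after Mcm10 and also a member on the other side of 0. Tk1, thymidine kinase (probe at chr11:117676845-117676904, mm9), had values of 2.10, 1.63, 1.66, 2.14 and 1.43 in Card9-/- mice, against 2.76, 2.95, 2.92, 2.78 and 2.98 in WT mice. Its difference was -1.08 ± 0.30 (2.12-fold lower; limma adjusted p = 0.198). Rrm2, the regulated subunit of ribonucleotide reductase, had values of 1.44, 1.01, 1.32, 1.88 and 1.15 in Card9-/- mice, against 2.07, 2.53, 2.46, 2.38 and 2.75 in WT mice. The highest Card9-/- value of each gene stayed under the lowest WT value, and Rrm2 differed by -1.08 ± 0.30 (2.11-fold lower; adjusted p = 0.198). Tyms, which makes thymidylate, had values of -2.49, -2.52, -2.33, -2.56 and -2.30 in Card9-/- mice, against -2.80, -2.60, -2.62, -2.39 and -2.67 in WT mice. These overlapped, with a difference of 0.18 ± 0.12 (limma adjusted p = 0.743). Rrm1, the large subunit of ribonucleotide reductase, differed by -0.79 ± 0.24 without overlap.

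The 3 members that restore chromatin behind the fork were all lower without overlap. Chaf1a and Chaf1b, subunits of the assembly factor that deposits histones, differed by -0.89 ± 0.28 and -0.84 ± 0.24. Uhrf1, which brings the maintenance DNA methyltransferase to new DNA, had values of 1.66, 0.88, 1.23, 1.79 and 1.10 in Card9-/- mice, against 1.86, 2.19, 2.36, 2.33 and 2.65 in WT mice, a difference of -0.94 ± 0.31.

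**Figure D3:**
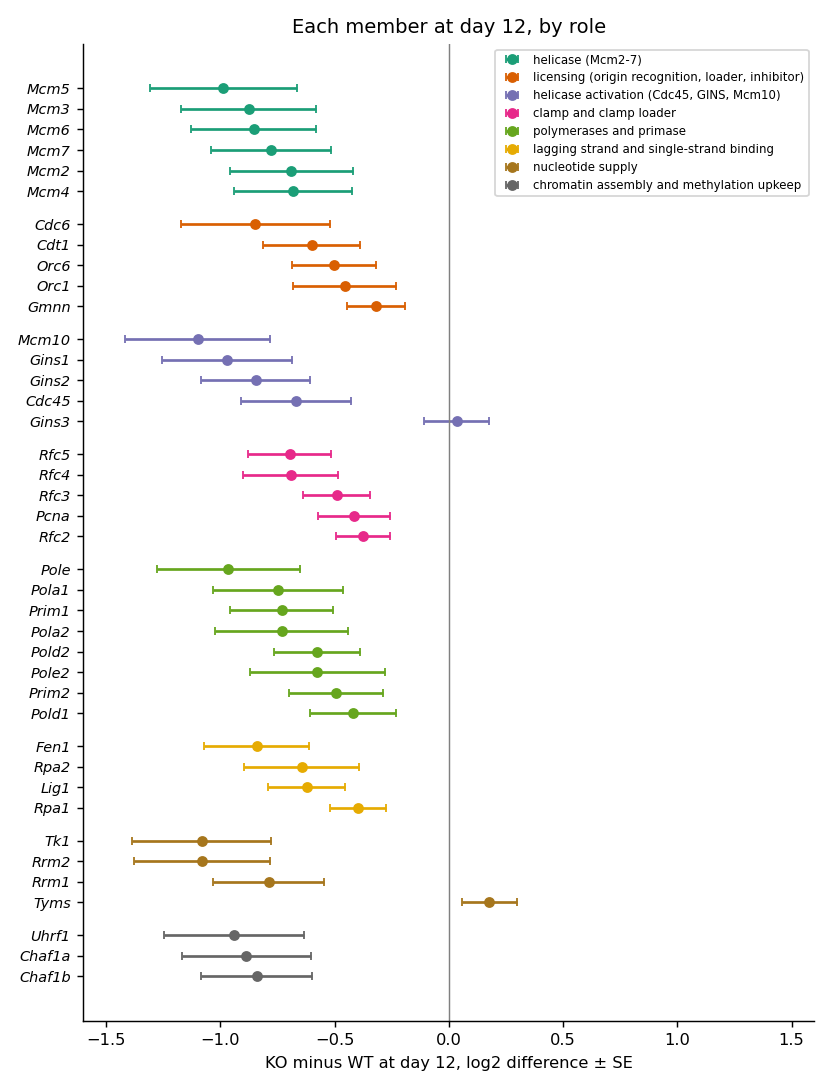
Log2 difference, KO (labelled Card9-/-) minus WT, at day 12 for each of the 40 members with the SE of the limma fit, grouped by role (5 mice per group). All but Gins3 (0.03) and Tyms (0.18) lie left of 0, and the lowest are Mcm10 (-1.10), Tk1 (-1.08) and Rrm2 (-1.08).

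The arrays were hybridised on 4 slides that each held both genotypes at day 12. Within the slides the members' median difference, Card9-/- minus WT, was -0.68, -0.56, -0.38 and -0.95, and 38 or 39 of the 40 were lower on each. Each slide held 1 or 2 mice of each genotype at day 12. The direction at day 12 was the same on every slide. For most members every Card9-/- value lay below every WT value, so any split by slide had to give this direction. For those members the slides add no separate evidence of it.

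**Figure D4:**
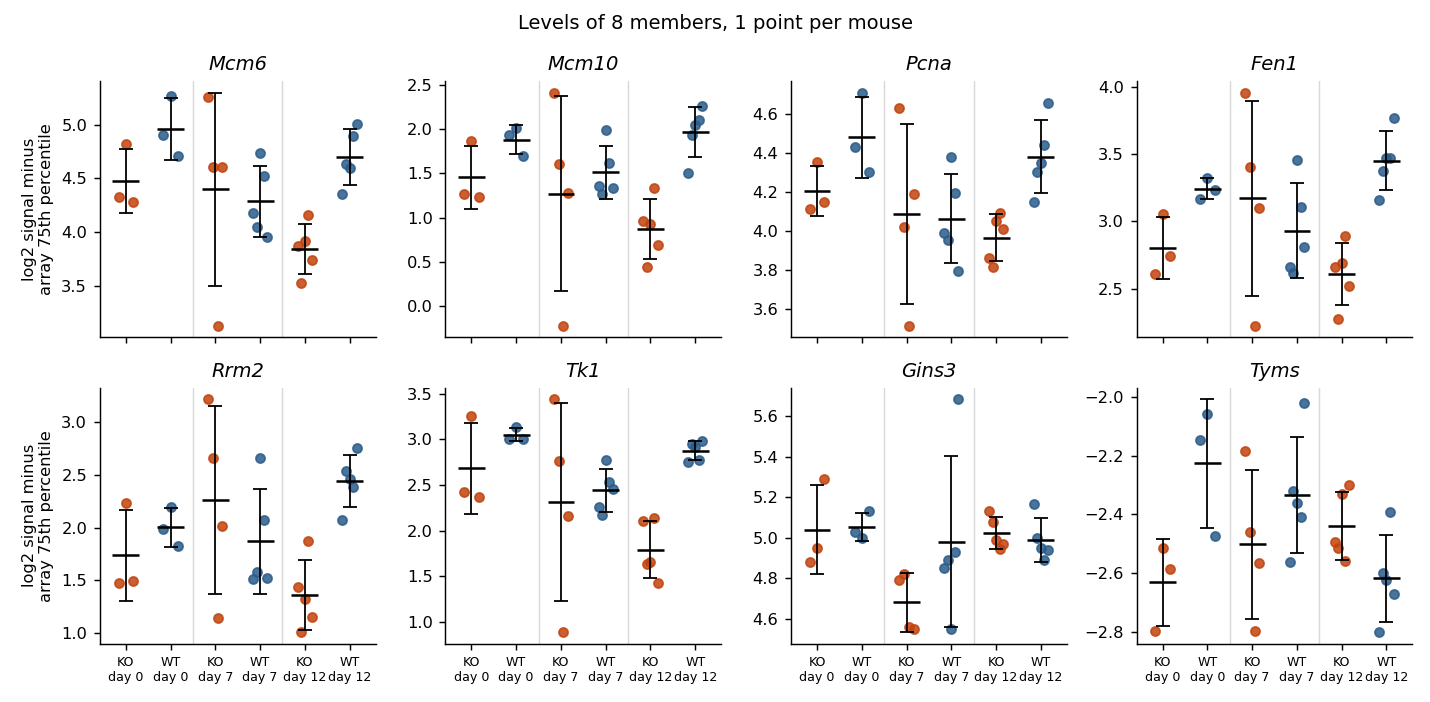
Levels of 8 members on each array (log2 signal minus the array's 75th percentile; 1 point per mouse; bars are group means with SD; KO is labelled Card9-/-). The 6 members Mcm6, Mcm10, Pcna, Fen1, Rrm2 and Tk1 separate KO from WT at day 12 and spread widely in KO at day 7, while Gins3 and Tyms overlap at day 12.

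Before DSS the same direction was seen with less separation. At day 0, 38 of the 40 members had a lower mean in Card9-/- than in WT (median difference -0.44, beside 0.04 over all genes), and 15 did not overlap, against 5.76% of all genes. With 3 mice per group limma called 0 members, against 0.00392% of all genes called in either direction, and only Tyms and Rfc3, both lower, had an unadjusted p under 0.05, against 2.15% of all genes. That number depended on the fit. It was 21 with slide as a block and 13 with these 2 groups alone. It was 9 without the 3 arrays of low 75th percentile and 8 without the 4 arrays with acinar signal. Limma called 0 members in each, against at most 0.00785% of all genes. The share of all genes at an unadjusted p under 0.05 was not taken in these fits. Whether these counts are particular to the members therefore cannot be read from them. Only 1 slide held both genotypes at day 0, with 1 mouse of each (median -0.52, 38 members lower). The other day 0 mice of the 2 genotypes were on different slides, so genotype and slide cannot be fully told apart. Mcm3, a helicase subunit, had values of 2.27, 2.90 and 2.35 in Card9-/- mice, against 3.02, 3.42 and 2.96 in WT mice, a difference of -0.62 ± 0.38. The groups did not overlap. Tyms, which was higher in Card9-/- at day 12 by 0.18, differed by -0.41 ± 0.16 at day 0.

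At day 7 the genotypes did not separate. The median member difference, Card9-/- minus WT, was 0.05, with 26 higher and 14 lower, and 0 called by limma against 0.549% of all genes. None was free of overlap, against 0.91% of all genes higher and 1.62% lower. Rfc2 alone had an unadjusted p under 0.05 (-0.33 ± 0.12), against 10.5% of all genes lower. By slide the median was 0.21, 1.09, -0.91 and -0.05, each slide holding 1 Card9-/- mouse of that day. Without Card9-/- day 7 replicate 3 the median was 0.36 with 0 called, and without Card9-/- day 7 replicate 1 limma called 1 member, lower, against 2.56% of all genes.

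The Card9-/- mice differed among themselves at day 7, with an SD of the member mean of 0.70 (n = 4), against 0.16 to 0.25 in the other groups. Replicate 1 held the highest value of all 25 arrays for 28 of the 40 members, and replicate 3 held the lowest of all 25 for 29. Within the group, replicate 1 was highest for 39 members and replicate 3 lowest for 38. Mcm10 had values of 2.41, 1.61, -0.22 and 1.28 in these mice, a range of 2.63, and Tk1 had values of 3.44, 2.77, 0.89 and 2.16. Replicate 3 also had a low 75th percentile (log2 7.68), a pancreatic acinar mean of 9.97 and a crypt stem cell mean of -0.55, the lowest of the 25 arrays, with an epithelial mean of 7.25. Replicate 2 had a like acinar mean of 9.60 with a member mean of 1.32. The part of these measures in the low values of replicate 3 was not tested.

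In WT mice the member means at the end of DSS lay below those before it, but few genes passed the test. All 40 had a lower mean at day 7 than at day 0 (median -0.43, beside 0.03 over all genes), 12 did not overlap, against 7.22% of all genes, and 11 had an unadjusted p under 0.05, against 9.82%. Limma called 1 of the 40, against 4.32% of all genes in either direction and 2.31% lower. That gene was Gmnn, which had values of 0.12, -0.02, 0.36, 0.42 and 0.05 at day 7, against 0.95, 0.83 and 0.55 at day 0. It fell by 0.59 ± 0.15 on the log2 scale (1.50-fold; limma adjusted p = 0.0247). The call was lost without WT day 0 replicate 1, WT day 0 replicate 2 or WT day 7 replicate 2, and also with these groups alone and with the mean of the gene's probes, the dimmer of which differed by 0.35. Without Card9-/- day 7 replicate 3 there were 4 calls, against 4.68% of all genes. Pole had the lowest difference, -0.94 ± 0.36, with values of 0.18, -0.12, 0.90, 0.48 and 0.11 at day 7, against 1.22, 1.46 and 1.06 at day 0. Its days did not overlap, but the limma adjusted p was 0.165. These values are of the brightest probe of Pole. The dimmer probes of Pole were higher at day 7 than at day 0, by 0.40 and 1.21. They were well above background on 22 and 3 arrays, so the fall of Pole rests on the brightest probe. Markers of other cells moved in the same comparison, with a median of 4.07 for the 8 neutrophil markers (5 called higher), 1.19 for the 8 macrophage markers (1 called higher), 1.01 for the 8 fibroblast markers (0 called, 6 at an unadjusted p under 0.05) and -0.40 for the 10 crypt stem cell markers (1 called lower). The array means of the crypt stem cell markers were 0.02 to 0.98 at day 7, against 1.06 to 1.32 at day 0. Those of the neutrophil markers were -1.09 to 2.25 at day 7, against -3.81 to -3.24 at day 0. Their part in the lower member means was not tested.

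The WT means of day 12 lay between those of day 7 and day 0 for most members. At day 12 against day 7, 38 of 40 WT means were higher (median 0.38), with 0 called by limma, against 0.486% of all genes, and 4 higher and 1 lower at an unadjusted p under 0.05, against 8.73% and 4.38% of all genes. Mcm3 had the largest difference, 0.63 ± 0.30, with values of 2.75, 3.09, 3.08, 3.16 and 3.44 at day 12, against 2.24, 2.01, 3.20, 2.76 and 2.17 at day 7. Of the day 7 mice, 2 lay within the day 12 range. Against day 0 the WT median at day 12 was -0.09, with 12 higher and 28 lower and 0 called, against 1.73% of all genes, and 1 lower at an unadjusted p under 0.05, against 5.78%.

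In Card9-/- mice the members' median at day 7 stood near that of day 0. At day 7 against day 0, 20 members were higher and 20 lower (median 0.03, beside -0.08 over all genes). Limma called 1 of the 40, Rfc2, while 19.6% of all genes were called, 12.7% lower. Rfc2 had values of 2.10, 1.84, 1.28 and 1.69 at day 7, against 2.36, 2.49 and 2.00 at day 0, and it fell by 0.55 ± 0.14 (1.47-fold; limma adjusted p = 0.00818). The day 7 value of replicate 1 lay within the day 0 range. The call was lost without Card9-/- day 0 replicate 2, without the 4 arrays with acinar signal (limma adjusted p = 0.0649) and with these groups alone (adjusted p = 0.193). Limma called 2 members, both lower, without WT day 7 replicate 5 (21% of all genes) or without Card9-/- day 7 replicate 1 (21.5%). Without Card9-/- day 7 replicate 3 it called 3, of which 2 were higher and 1 lower (17.2%).

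At day 12 against day 7, 36 of 40 Card9-/- means were lower (median -0.40), with 0 called by limma, against 7.69% of all genes, and 12 lower and 1 higher at an unadjusted p under 0.05, against 7.16% and 15.6% of all genes. Rrm2 had the lowest difference, -0.90 ± 0.32 (adjusted p = 0.087). Here the count depended on which arrays were left out. Without Card9-/- day 7 replicate 3 limma called 24 of the 40 members lower, beside 1.86% of all genes called lower, and the median was -0.71. Without the 4 arrays with acinar signal, that replicate among them, it called 4 members, all lower, against 0.97% of all genes in either direction. With all arrays the median was -0.64, -0.93, 0.60 and -0.53 by slide. Without WT day 7 replicate 5 there was 1 call, in the higher direction, against 8.99% of all genes.

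At day 12 against day 0, 38 of 40 Card9-/- means were lower (median -0.38), and 14 did not overlap, against 9.66% of all genes. Limma called Rfc2 alone, against 6.94% of all genes called and 3.24% called lower. Rfc2 had values of 1.90, 1.76, 1.61, 1.79 and 1.71 at day 12 and fell by 0.53 ± 0.14 relative to day 0 (1.44-fold; limma adjusted p = 0.0223). That call was lost without Card9-/- day 0 replicate 1, Card9-/- day 0 replicate 2 or Card9-/- day 12 replicate 3. It was also lost with slide as a block (limma adjusted p = 0.0726), these groups alone (0.0538), array median scaling (0.0504) and the proximal colon covariate (0.112). Without Card9-/- day 7 replicate 3 limma called 5 members, against 7.78% of all genes. The comparisons above share groups with each other, so their values are given side by side and not as independent results.

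Whether the change over time differed between genotypes was tested as an interaction. Between days 7 and 12, the Card9-/- change minus the WT change had a median of -0.76 over the members, with 38 of 40 below 0 and 27 at an unadjusted p under 0.05, against 3.03% of all genes. Limma called 0 of the 40 and 0.00784% of all genes. Rrm2 had the largest such difference, -1.47 ± 0.43 (limma adjusted p = 0.434). The median was -0.49 without Card9-/- day 7 replicate 1 and -1.07 without Card9-/- day 7 replicate 3. Between days 0 and 7 the median was 0.47, with 37 above 0 and 0 called, against 0.00392% of all genes. There 2 members above 0 and 1 below it had an unadjusted p under 0.05, against 4.39% and 7.17% of all genes. This median was 0.21 without Card9-/- day 7 replicate 1 and 0.77 without Card9-/- day 7 replicate 3.

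Other genes of the pathway were taken from lists chosen with earlier results of these data known. Over all genes at day 12, 2.98% did not overlap and were lower, 5.99% were lower at an unadjusted p under 0.05 and 0.0706% were called. Of 42 other genes of the replication machinery, 39 were lower in Card9-/- than in WT at day 12 (median -0.36), 18 did not overlap and 0 were called by limma (22 at an unadjusted p under 0.05). Pold3, a subunit of the lagging strand polymerase, differed by -0.33 ± 0.08 and Dtl, part of the ligase that removes Cdt1, by -1.17 ± 0.31. Of 31 measured genes of S phase control 25 were lower and 0 called, with 11 at an unadjusted p under 0.05. Cdk1 and Ccna2, a kinase and a cyclin of S phase and mitosis, differed by -1.03 ± 0.29 and -1.20 ± 0.36. Of 10 other nucleotide supply genes 8 were lower and 0 called (4 at an unadjusted p under 0.05).

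During DSS some of these other genes passed the test in both genotypes. Samhd1, which breaks down deoxynucleotides, rose at day 7 by 0.99 ± 0.24 in Card9-/- mice and by 0.90 ± 0.23 in WT mice (limma adjusted p = 0.00529 and 0.0259). E2f3, an activating E2F factor, fell by 0.81 ± 0.21 in Card9-/- mice and by 0.93 ± 0.20 in WT mice. Of the 31 genes of S phase control, limma called 1 higher and 6 lower in Card9-/- mice, against 6.9% and 12.7% of all genes, and 2 lower in WT mice, against 2.31% of all genes. Both lower counts include Cdk6, a kinase of the step into S phase. Its probe passed the filter through the day 0 arrays. At day 7 it was well above background on 1 of the 4 Card9-/- and 0 of the 5 WT arrays. The fall of Cdk6 is therefore not read as a result, although both counts still hold it.

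Genes of mitosis were lower alongside the replication genes at day 12. All 20 genes of the mitosis and proliferation list had a lower mean in Card9-/- than in WT (median -1.10), 18 did not overlap, and 0 were called by limma, with 19 at an unadjusted p under 0.05, against 2.98%, 0.0706% and 5.99% of all genes. Kif11, a motor of the spindle, differed by -1.31 ± 0.31 and Bub1b, a spindle checkpoint kinase, by -1.09 ± 0.28 (adjusted p = 0.139 and 0.184). The mean of the list was 0.33, 0.15, 0.01, 0.27 and -0.44 in Card9-/- mice, against 0.84, 1.09, 1.28, 1.25 and 1.31 in WT mice. Fitted on these 2 groups alone, 18 of the 20 were called lower, against 0.945% of all genes. At day 7 the median of the mitosis genes, Card9-/- minus WT, was -0.41 with 20 of 20 lower, beside 0.05 for the replication genes. Without Card9-/- day 7 replicate 3 these medians were 0.08 and 0.36, so the sign of the first rests on that array.

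**Figure D5:**
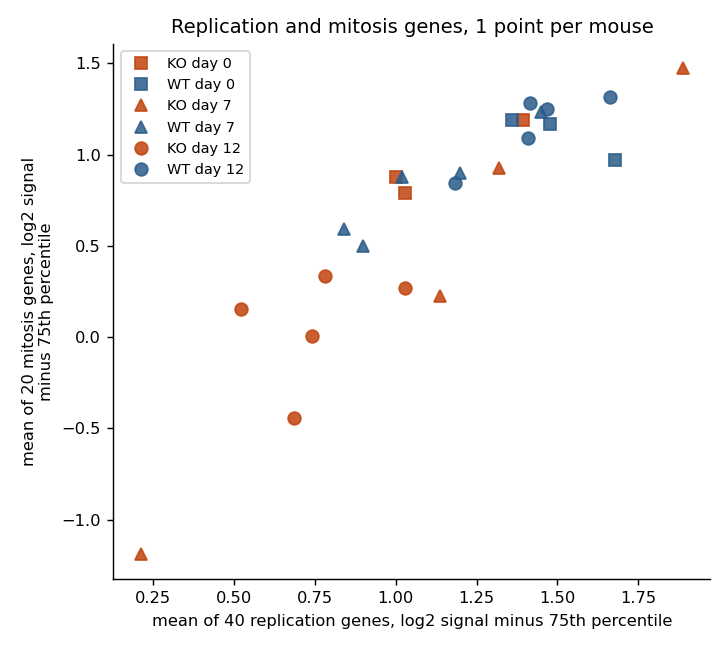
Mean of the 40 replication genes (x axis) and of 20 mitosis genes (y axis) on each array, both as log2 signal minus the array's 75th percentile (1 point per mouse; KO is labelled Card9-/-). The KO day 12 points lie at 0.52 to 1.03 and -0.44 to 0.33, the WT day 12 points at 1.18 to 1.66 and 0.84 to 1.31, and KO day 7 holds both the lowest and the highest point.

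Markers of cell types were set beside the day 12 difference. The 12 epithelial markers had a median difference of -0.02, 7 of them lower, with array means of 7.16 to 7.46 in Card9-/- mice and 7.24 to 7.42 in WT mice. The 10 crypt stem cell markers had a median of -0.36, 7 of them lower, with array means of 0.11 to 0.98 in Card9-/- mice and 0.53 to 1.21 in WT mice. The 11 B cell markers had a median of 1.18 with 10 higher (array means -1.31 to -0.14 in Card9-/- mice and -2.62 to -0.59 in WT mice), and the 8 neutrophil, 8 macrophage and 8 fibroblast markers medians of 0.66, 0.54 and 0.51. Limma called 0 markers in each of these lists, against 0.0706% of all genes. With the 2 groups alone it called 1 fibroblast marker, higher (limma adjusted p = 0.0306), and 0 in the other lists named here, against 1.1% of all genes. The part of these differences in those of the replication genes was not tested.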

How the data were processed

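Colon RNA of 25 mice was measured on 25 arrays, 1 per mouse, made from 100 ng of RNA, per the labels' protocols. The files that the authors deposited hold spot intensity from Agilent Feature Extraction 10.7.3.1, per the file headers, background-subtracted and not normalized between arrays. Each has 62976 spots, 59305 of them not controls. A deposited series table holds 33418 probes on a log2 scale. The sources used here do not say how it was normalized, and it served as an alternative.

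Here log2 of the processed intensity minus the array's 75th percentile was used. Spots with outlier flags were left out, spots of a probe were averaged, and probes well above background on at least 3 arrays were kept (36356). The brightest probe stood for its gene. The 40 members had 53 probes, and 38 of their brightest probes were well above background on all 25 arrays. No member value was missing. Groups were taken from the labels, and limma 3.58.1 (lmFit, eBayes; R 4.3.3) fitted the 6 group means, with Benjamini-Hochberg adjustment over 25498 genes per contrast. A gene was called at an adjusted p under 0.05. The script was tested on simulated data. Figures used matplotlib 3.10.9 in Python 3.11.15.

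The members and lists were chosen with earlier results of these data known. All members could be named, with full statistics for those of smallest p per role and those opposite to the majority, and up to 2 genes of another list where none was called, or 4 where some were. Alternatives were normexp correction with an offset of 50, quantile and median scaling, the series table, other filters (none, or 13 arrays), the mean of a gene's probes, slide or replicate blocks, a proximal colon covariate, each contrast's groups alone, and leaving out arrays. Another Card9-/- mouse of day 7 is not analysed here.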

Additional observations from a re-analysis of the deposited data

Results flagged for a closer look

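Of 264 sets of values (a member or a list mean in a group of 4 or 5 arrays), 2 held an array that stood apart from the rest of its group, and chance alone marks about 1 in 20 such sets. None was a member. The mean of the pancreatic acinar genes was 9.08 on Card9-/- day 12 replicate 1, against -4.66 to -1.59 on the other 4 arrays of the group. The mean of the B cell markers was -3.46 on WT day 7 replicate 1, against -2.17 to -1.64 on the other 4. The mean of the replication genes on these arrays was 0.78 and 0.90, within the range of their groups.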

How the results depend on the processing

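The members' median difference at day 12, Card9-/- minus WT, lay between -0.78 and -0.62 under all alternatives. The number of members whose groups did not overlap lay between 26 and 35 of 40 where it was counted. It was not counted with slide or replicate blocks, the proximal colon covariate or these groups alone. Below, percentages in brackets are shares of all genes called in either direction. The count of members called at day 12 was 0 (0.0706%) and became 21 with these groups alone (1.1%). It was 18 without the 3 arrays of low 75th percentile (1.53%), an alternative chosen after seeing the data. It was 0 to 18 when each array was left out in turn (1.13% at 18). For Card9-/- at day 12 against day 7 it was 0 (7.69%). It became 1 (higher) with array median scaling (12%) and 1 (lower) with the series table (6.72%). It was 4 without the 4 arrays with acinar signal (0.97%) and 22 without the 3 low arrays (6.87%). Leaving out an array gave 0 to 24 (6.22% at 24). For Card9-/- at day 12 against day 0 it was 1 (6.94%). It became 0 with median scaling (5.64%), slide as a block (4.4%), the proximal colon covariate (2.84%) or these groups alone (5.25%). It was 4 without the acinar arrays (7.63%) and 5 without the low arrays (9.6%). Leaving out an array gave 0 to 5 (7.78% at 5). For Card9-/- at day 7 against day 0 it was 1 (19.6%). It became 2 with the slide block, 1 higher and 1 lower (17.4%). It was 0 without the acinar arrays (12.8%) or with these groups alone (9.4%). It was 3 with the covariate, 1 higher and 2 lower (18.4%), and 3 without the low arrays, 2 higher and 1 lower (19.4%). Leaving out an array gave 0 to 3 (17.2% at 3). For WT at day 7 against day 0 it was 1 (4.32%). It became 0 with the mean of a gene's probes (3.91%) or these groups alone (0.149%), and 2 with the slide block (4.83%). It was 4 without the acinar arrays (4.28%) and 4 without the low arrays (4.45%). Leaving out an array gave 0 to 4 (4.68% at 4). For Card9-/- against WT at day 7 it was 0 (0.549%), and 0 to 1 by leaving out an array (2.56% at 1). The cause of these moves was not tested. Card9-/- day 7 replicate 3 was the array with the lowest member mean. Same-numbered arrays did not deviate together (median r 0.04 over 54 pairs of arrays, 15 of them over 0.1), so the replicate numbers were not taken as pairs. With the replicate number as a block the day 12 count was 0 and the median -0.69, and no count of calls moved.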
